A study of Mus musculus with 8 samples.

Results

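The genes described here are 33 heterogeneous nuclear ribonucleoprotein (hnRNP) and related RNA-binding protein genes other than Hnrnpk, taken by symbol, from a list drawn up with earlier results of these data known, out of the 55335 genes of a count table of mouse embryonic stem cells (ESCs). All 33 passed the filter on low counts, which left 16504 genes for the tests. RNA-seq was done on the E14 ESC line in 4 groups of 2 biological replicates. Each group carried a lentiviral short hairpin RNA (shRNA): a scrambled negative control, or a hairpin against Sox2, Hnrnpk or Cdk9. The knockdown (KD) groups are called Sox2-KD, hnRNPK-KD and Cdk9-KD, and all groups, control included, were infected with the virus. A pair of hairpins was designed against each gene, and the labels do not say which of them a library received. The cells were grown with LIF and inhibitors of GSK3 and MEK, and polyadenylated RNA was sequenced.

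hnRNPs bind nascent transcripts as they leave RNA polymerase and take part in splicing, 3′ end formation, export, stability and translation of mRNA. SOX2 is a transcription factor of pluripotent cells that also contacts RNA, hnRNPK is a poly(C)-binding hnRNP that associates with SOX2, and CDK9 is the kinase that releases paused RNA polymerase II. The comparisons ask whether lowering any of these factors is accompanied by a different mRNA level of the remaining hnRNPs and their partners.

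The families were grouped by protein relatedness. The A/B family (Hnrnpa0, Hnrnpa1, Hnrnpa2b1, Hnrnpa3) packages pre-mRNA and often silences exons, and the AB/D family (Hnrnpab, Hnrnpd, Hnrnpdl) binds AU-rich elements and influences mRNA decay. Hnrnpc binds uridine tracts and Raly is its close relative, the F/H family (Hnrnpf, Hnrnph1, Hnrnph2, Hnrnph3) binds runs of G, and Hnrnpl, Hnrnpll and the polypyrimidine tract proteins Ptbp1, Ptbp2 and Ptbp3 bind CA- or pyrimidine-rich RNA. Hnrnpm, Hnrnpr, Syncrip (hnRNP Q) and Rbmx (hnRNP G) are further splicing and transport factors. Hnrnpu, Hnrnpul1 and Hnrnpul2 form the U family of nuclear scaffold proteins. Ewsr1 and Taf15 belong to the FET family, Tardbp encodes TDP-43, Elavl1 encodes the mRNA stabilizer HuR, Sfpq and Nono are paraspeckle proteins, Matr3 is a nuclear matrix protein, and Ilf2 encodes NF45.

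The sequences that the hairpins target are shown because a hairpin that matched a member would lower it directly. They are given 5′ to 3′ as the sense strand, in lower case throughout:
NG-shRNA: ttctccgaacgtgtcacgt
SOX2-shRNA1: aggagcacccggattataaat
SOX2-shRNA2: caaagagatacaagggaattg
hnRNPK-shRNA1: cggattaaacaaattcgtcat
hnRNPK-shRNA2: gggttcagtgctgatgaaact
CDK9-shRNA1: ggacatgaaggctgcgaatgt
CDK9-shRNA2: gcatgctgtctactcacttga
With up to 2 mismatches, 0 of the 33 members held any of these 7 sequences in an annotated transcript. The closest member sites were at 5 mismatches, in Hnrnpa1 for SOX2-shRNA2 and in Hnrnpm for CDK9-shRNA2, and those for the other hairpins were at 6.

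The libraries held 16709201 to 17719366 counts, and the members had between 235 and 37092 counts in any library. Sox2 had 412 and 530 CPM (counts relative to the library total, scaled by the TMM method) in control and 320 and 284 in Sox2-KD (log2FC -0.64, edgeR quasi-likelihood test, adjusted p = 0.0479). This call was lost with library totals in place of TMM (adjusted p = 0.0640), without the filter (0.0570), with the replicate block (0.0669), with only the 4 libraries compared (0.0529) and whenever a library of either group was left out (0.0647 to 0.311), and DESeq2 kept it (0.00664). Hnrnpk had 1094 and 1131 CPM in control, but 697 and 1144 in the libraries labelled hnRNPK-KD, so that replicate 1 stood at 62.7% of the control mean and replicate 2 at 103%. Directions drawn from that label therefore rest on libraries of which only replicate 1 had less Hnrnpk mRNA. Cdk9 had 109 and 129 CPM in control and 73.1 and 53.2 in Cdk9-KD (log2FC -0.91, edgeR adjusted p = 0.0985). All 8 markers of undifferentiated ESCs were over 1 CPM in every library and 0 were called in any knockdown, but their summed level was 5074 to 5683 CPM in Sox2-KD, below the 5701 to 6520 of control without overlap. It was 5947 to 6208 CPM under the hnRNPK-KD label and 6064 to 7113 in Cdk9-KD. The summed level of 8 trophectoderm markers was 186 to 319 CPM in Sox2-KD and 89.0 to 101 in control, with 4 of them called higher (Eomes, Krt8, Krt18, Krt7). It was 97.3 to 130 CPM under the hnRNPK-KD label and 80.0 to 82.7 in Cdk9-KD, where Eomes was called higher and Tfap2c lower. The summed level of 8 primitive endoderm markers was 153 to 212 CPM in Sox2-KD and 225 to 254 in control, with Gata6 and Dab2 called higher and Lama1 lower. Under the hnRNPK-KD label it was 312 to 332 CPM and in Cdk9-KD 295 to 353, both above control without overlap and with 0 calls. Of the neural markers Sox1 was called lower in Sox2-KD (sum 52.9 to 66.0 against 63.3 to 80.5 CPM in control), with Dcx at 0 in every group. The fibroblast markers summed to at most 6.19 CPM, with Lum called higher in Sox2-KD and Twist2 at 0 in every group. What part these markers had in the results was not tested, and in bulk RNA fewer cells of a type cannot be told apart from less RNA per cell.

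The 33 members together held 1.62% and 1.73% of all counts in the control libraries. Sox2-KD held 1.54% and 1.40%, both below control. The libraries labelled hnRNPK-KD held 1.73% and 1.83%, and Cdk9-KD held 1.56% and 1.81%, on either side of control. The A/B family was the largest block, with 0.489% and 0.543% of the counts in control, 0.444% and 0.410% in Sox2-KD, 0.511% and 0.597% under the hnRNPK-KD label, and 0.467% and 0.562% in Cdk9-KD. No test was made of these shares, since an exact permutation test of 2 against 2 libraries cannot reach 0.05.

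**Figure D1:**
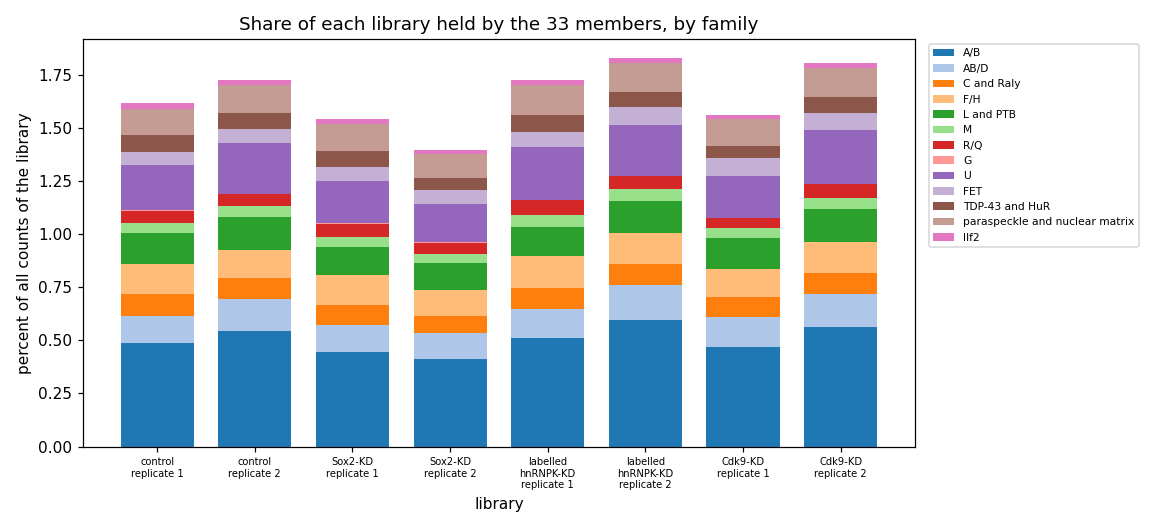
Stacked bars give the percent of each library's counts that fell on the 33 members, by family, for the 8 libraries. The total ran from 1.40% in Sox2-KD replicate 2 to 1.83% in replicate 2 under the hnRNPK-KD label, and the A/B family was the largest block in each.

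Levels were compared between genes as CPM per kilobase of exon. In control, Hnrnpa1, an exon-silencing splicing factor, was highest at 531 ± 69.6 (SD, n = 2), followed by its relative Hnrnpa3 at 347 ± 21.9 and by the G-run binder Hnrnpf at 225 ± 25.2. The lowest were Hnrnpr at 7.50 ± 0.13, Rbmx at 3.59 ± 0.32 and Ptbp2, the neuronal polypyrimidine tract protein, at 3.20 ± 0.25. The order depends on the length used. Per kilobase of the longest transcript, Hnrnpa2b1 (344) stood above Hnrnpf (285) in the third place, and Rbmx (4.997) below Ptbp2 (7.24) in the last, while Hnrnpa1 (537) and Hnrnpa3 (363) stayed on top. Of the 32 pairs of neighbours in the order by exon length, 16 had control libraries that did not overlap and the other 16 could not be ordered from these libraries. Hnrnpa1 kept the highest mean in every group, at 395 CPM per kilobase in Sox2-KD, 512 under the hnRNPK-KD label and 542 in Cdk9-KD. Ptbp2 had 2.92, 3.40 and 3.34 CPM per kilobase in the same order, so that the span between the ends of the list was wide in every group.

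**Figure D2:**
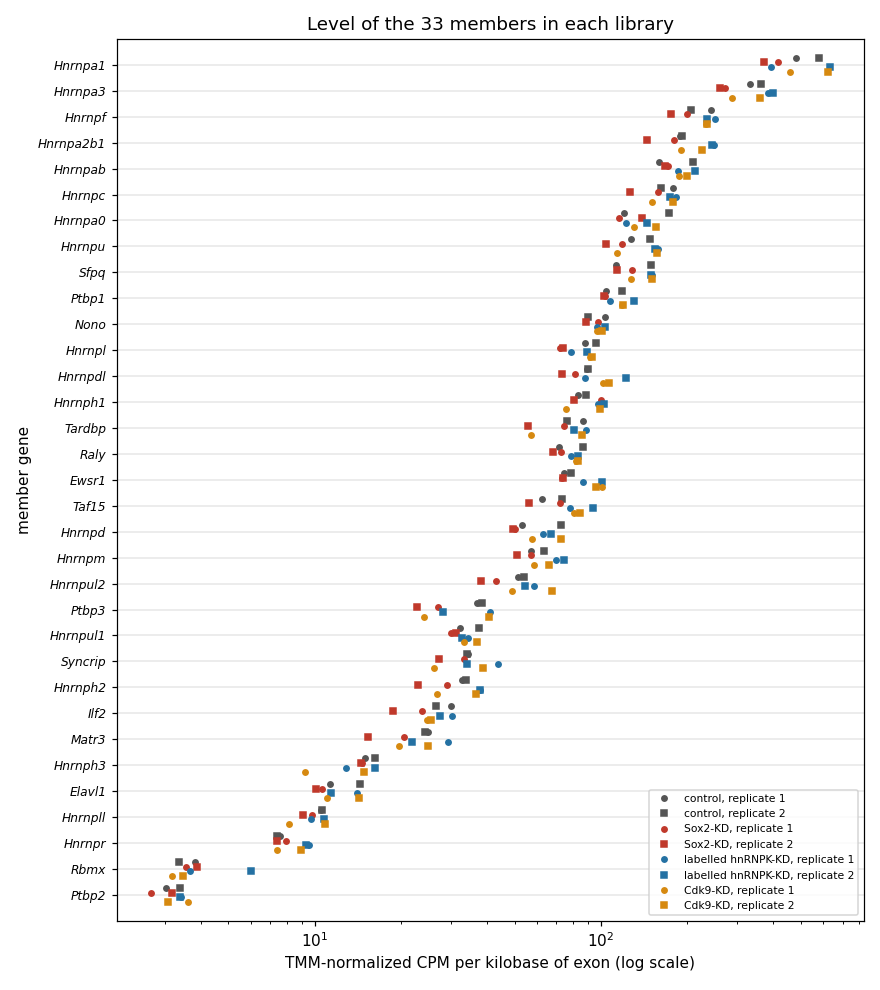
Each row is a member gene and each point a library (circles replicate 1, squares replicate 2), with TMM-normalized CPM per kilobase of exon on a log axis. Levels ran in control from a mean of 3.20 for Ptbp2 to 531 for Hnrnpa1, and the spread within a row was small against that range.

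Some of these levels are uncertain because the treatment of reads shared between genes and the strand setting are not stated. Of the 75-base stretches of the longest transcript, 46.4% in Hnrnpf, 28.4% in Hnrnpm, 27.9% in Hnrnpa3, 26.9% each in Hnrnpa1 and Matr3, 15.8% in Nono, 15.4% in Ewsr1 and 12.98% in Hnrnph2 also occur in transcripts of other annotated genes. Hnrnph3 overlaps Rufy2 on the other strand, which had up to 140% of the counts of Hnrnph3, and Ilf2 overlaps Snapin on the other strand, which had up to 23.7% of those of Ilf2. Genes that overlap Ptbp2 had up to 23.2% of its counts.

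In Sox2-KD versus control, 0 of the 33 members were called at adjusted p under 0.05 and absolute log2FC over 0.6, against 4.32% of all tested genes (edgeR; DESeq2 also called 0 members, and 6.23% of all genes). At an unadjusted p under 0.05 there were 6 members, all lower, namely Ilf2, Hnrnpa3, Hnrnpl, Ptbp3, Matr3 and, at the very edge of that limit, Hnrnpul2. That is 18.2% of the members, beside 8.25% of all genes that were lower at this p and 19.3% in either direction. The fitted log2FC was below 0 for 30 members (48.2% of all genes), with a median of -0.21 against 0.02 over all genes. With library totals in place of TMM, 28 members were below 0, with medians of -0.13 for the members and 0.09 over all genes. The Sox2-KD pair lay wholly below the control pair for 22 members (25.2% of all genes) and wholly above it for 0 (28.2%). The 95% interval of the log2FC stayed within 0.6 of 0 for 18 members (25% of all genes), and for the other 15 a difference of that size was not excluded. Such shares over all genes, here and below, were not matched for level, and the filter kept genes with far fewer counts than the members.

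Ilf2, whose product NF45 takes part in transcription and RNA processing, had 257 and 228 CPM in control and 204 and 161 in Sox2-KD. Both Sox2-KD values were below both control values (log2FC -0.41, SE 0.15, edgeR adjusted p = 0.174). Its counts are uncertain because of the overlap with Snapin. Hnrnpa3 had 1788 and 1955 CPM in control and 1467 and 1412 in Sox2-KD, again without overlap (log2FC -0.38, SE 0.15, edgeR adjusted p = 0.186). Hnrnpl, a regulator of exon inclusion through CA repeats, had 524 and 573 CPM in control and 430 and 440 in Sox2-KD (log2FC -0.33, SE 0.14, edgeR adjusted p = 0.206). Its groups did not overlap either.

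The lowest fitted value among the members was that of Ptbp3, a paralog of Ptbp1 described first in blood cells. Ptbp3 had 277 and 287 CPM in control and 202 and 171 in Sox2-KD, without overlap (log2FC -0.60, SE 0.24, 95% interval -1.13 to -0.06, edgeR adjusted p = 0.212). It was not called in the fit of all 8 libraries and was the 1 member called in the fit of only these 4. The share of all genes called in that fit is not given here, so the call cannot be set against a background. Ptbp3 also had 306 and 211 CPM under the hnRNPK-KD label and 180 and 306 in Cdk9-KD. Cdk9-KD replicate 1 thus lay between the Sox2-KD libraries while the other replicate was above control.

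By family, the fitted log2FC in Sox2-KD ran from -0.43 to -0.21 over the 4 genes of the A/B family, from -0.33 to -0.13 over the 3 genes of AB/D, and from -0.37 to -0.19 over the 3 genes of U. Hnrnpc stood at -0.26 and Raly at -0.17, Tardbp at -0.32 and Elavl1 at -0.31. The L and PTB genes ran from -0.60 to -0.11, and Matr3, Sfpq and Nono had -0.45, -0.11 and -0.05. The FET genes were close to control, with -0.06 for Ewsr1 and -0.08 for Taf15, and Hnrnpm had -0.15 and Syncrip -0.18. The 3 members above 0 were Hnrnph1 (0.07), Rbmx (0.05) and Hnrnpr (0.03). None of these values passed the test. The F/H family was the widest apart after L and PTB, with Hnrnph1 at 0.07, Hnrnph3 at -0.10, Hnrnpf at -0.26 and Hnrnph2 at -0.36.

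**Figure D3:**
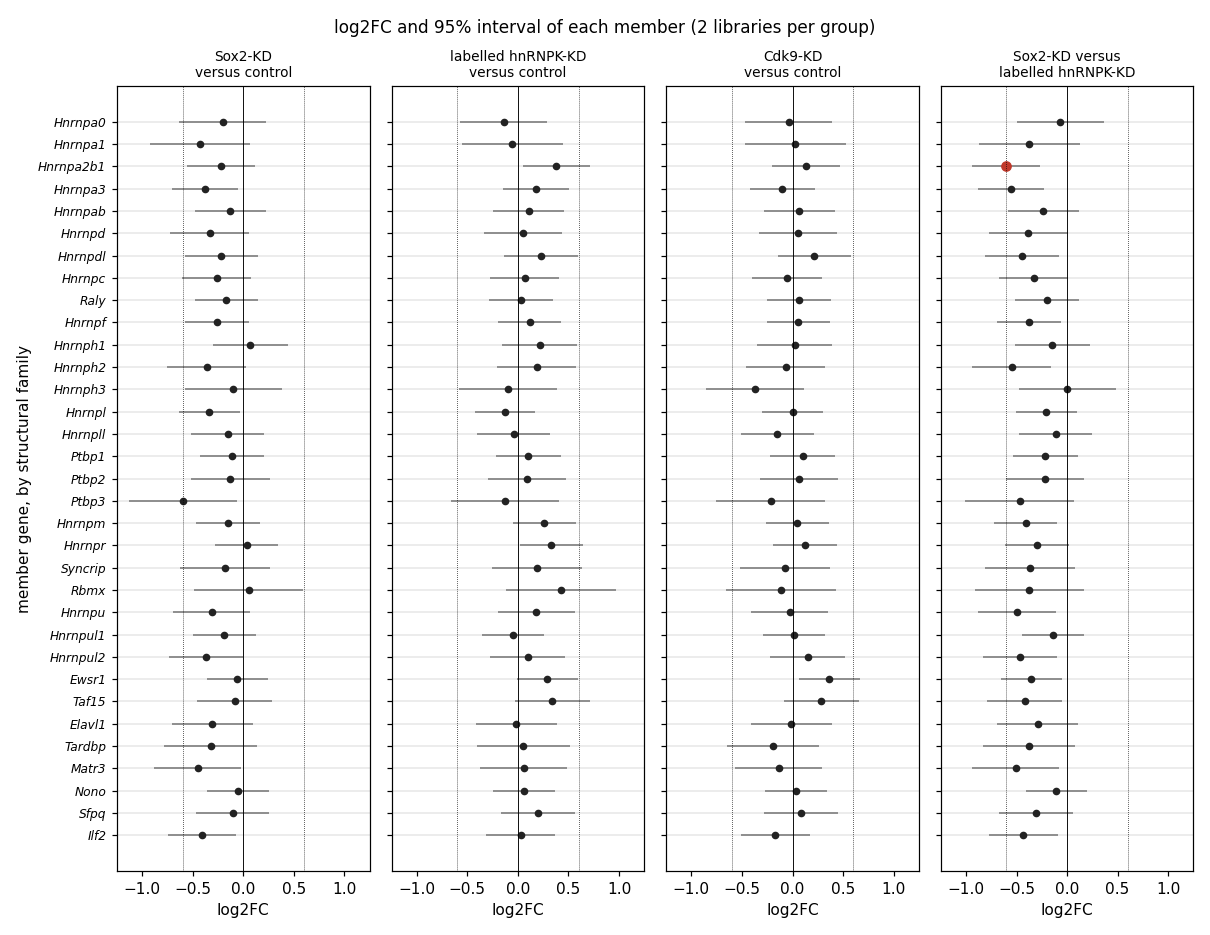
Points give the fitted log2FC and lines its 95% interval for each member in 4 comparisons, in family order, with dotted lines at 0.6 on either side of 0. The red point is Hnrnpa2b1 in Sox2-KD versus the libraries labelled hnRNPK-KD (-0.61), the only member called in these panels.

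In the libraries labelled hnRNPK-KD versus control, 0 of 33 members were called, and edgeR called 0% of all tested genes (DESeq2 called 0.448% of all genes and 0 members). At an unadjusted p under 0.05 there were 2 members, both higher, Hnrnpa2b1 and Hnrnpr (8.03% of all genes passed this limit and 3.48% were higher). The median log2FC of the members was 0.10 against 0.02 over all genes, and 8 members were below 0 (47.6% of all genes). With library totals in place of TMM the medians were 0.06 and -0.02, with 10 members below 0. Both libraries lay above both controls for 12 members (20.4% of all genes) and below them for 0 (18.7%). The 95% interval stayed within 0.6 of 0 for 27 members (33% of all genes). When control replicate 1 was left out, 14 members were below 0 (median 0.06), and when replicate 2 under the hnRNPK-KD label was left out, 12 were (median 0.09).

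Hnrnpa2b1, which also reads N6-methyladenosine and sorts small RNAs, had 1243 and 1262 CPM in control and 1645 and 1618 under the hnRNPK-KD label. The groups did not overlap, and the replicates of each were close (log2FC 0.38, SE 0.15, edgeR adjusted p = 0.573). Hnrnpr, a relative of Syncrip, had 169 and 165 CPM in control and 211 and 208 under this label (log2FC 0.33, SE 0.14, edgeR adjusted p = 0.595). Ewsr1 had 440 and 465 CPM in control and 510 and 598 under this label (log2FC 0.29, SE 0.14, edgeR adjusted p = 0.636). All 3 genes were higher in replicate 1, which had less Hnrnpk mRNA, and in replicate 2, which did not.

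Hnrnpa1 separated these replicates, with 1238 CPM in replicate 1 and 1989 in replicate 2, against 1520 and 1830 in control (log2FC -0.05, SE 0.23). The library with less Hnrnpk mRNA was thus below both controls, and the other was above both. With a single library of that kind no test was made. In Cdk9-KD, Hnrnpa1 also lay below both controls in replicate 1 (1450 CPM) and above both in replicate 2 (1967 CPM). Hnrnpk had 996 and 1094 CPM in those libraries, against 1094 and 1131 in control. In Sox2-KD both genes lay below both controls in each library, with Hnrnpk at 965 and 959 CPM and Hnrnpa1 at 1315 and 1174. Hnrnpk was not called there (log2FC -0.21, edgeR adjusted p = 0.624). Whether the levels of these genes are linked was not tested. Rbmx, the hnRNP G gene, differed between the replicates under the hnRNPK-KD label, with 15.8 CPM, inside the range of control (16.5 and 14.6), and 25.9, above it.

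The families ranged under the hnRNPK-KD label from -0.14 to 0.38 in log2FC for A/B, from 0.05 to 0.23 for AB/D, from -0.10 to 0.22 for F/H, from -0.13 to 0.10 for L and PTB and from -0.05 to 0.18 for U. The FET genes had 0.29 and 0.34, Hnrnpm had 0.26 and Syncrip 0.19, and the paraspeckle and nuclear matrix genes ran from 0.06 to 0.20. Elavl1 (-0.02), Ilf2 (0.03), Raly (0.03), Tardbp (0.05) and Hnrnpc (0.07) lay close to control.

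In Cdk9-KD versus control, 0 of 33 members were called, against 0.139% of all tested genes (DESeq2 called 0 members and 1.34% of all genes). Ewsr1, higher, was the 1 member at an unadjusted p under 0.05 (10.4% of all genes, 5.49% higher). The median log2FC was 0.02 for the members and 0.02 over all genes, 14 members were below 0 (47.6% of all genes), and the 95% interval stayed within 0.6 of 0 for 27 (30.6% of all genes). Both Cdk9-KD libraries lay above both controls for Hnrnpdl, Ptbp1, Ewsr1 and Taf15, which is 4 members (21.2% of all genes), and below them for Hnrnph3 and Ilf2, which is 2 (18% of all genes).

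Ewsr1, a FET protein that couples transcription and splicing, had 440 and 465 CPM in control and 596 and 569 in Cdk9-KD (log2FC 0.36, SE 0.14, edgeR adjusted p = 0.393). Taf15, the other FET gene here, had 182 and 214 CPM in control and 235 and 247 in Cdk9-KD (log2FC 0.28, SE 0.17, edgeR adjusted p = 0.60). Neither gene overlapped control. Hnrnph3 had 47.3 and 51.0 CPM in control and 29.1 and 47.0 in Cdk9-KD (log2FC -0.37, SE 0.22, edgeR adjusted p = 0.601). Its low value rests on replicate 1, and the log2FC was -0.10 without that library. Rufy2, the gene on the other strand, leaves these counts uncertain.

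Outside the FET genes and Hnrnph3, the log2FC in Cdk9-KD ran from -0.10 to 0.13 for A/B, from 0.06 to 0.22 for AB/D, from -0.22 to 0.10 for L and PTB and from -0.03 to 0.15 for U. Sfpq, Nono and Matr3 had 0.09, 0.04 and -0.14, and Tardbp had -0.19, none of them past the test.

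The Cdk9-KD libraries differed from each other across the members. Replicate 1 was below replicate 2 for 31 of 33 members, against 49.6% of all tested genes. The widest gap was in Ptbp3, at 180 and 306 CPM. Without replicate 1 the median log2FC of the members was 0.08, with 6 below 0, and without replicate 2 it was -0.13, with 23 below 0. Without control replicate 1 it was -0.11, with 25 below 0. In Sox2-KD the split was also one-sided, with replicate 2 the lower for most members and replicate 1 for 6 (51.1% of all genes). In control, replicate 1 was the lower for 24 members (49.1% of all genes), and under the hnRNPK-KD label for 18 (48%). Without either Sox2-KD library the median in Sox2-KD versus control stayed below 0, at -0.30 without replicate 1 and -0.13 without replicate 2. For this comparison the medians without a control library are not given here, so these values cover only part of the repeats.

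**Figure D4:**
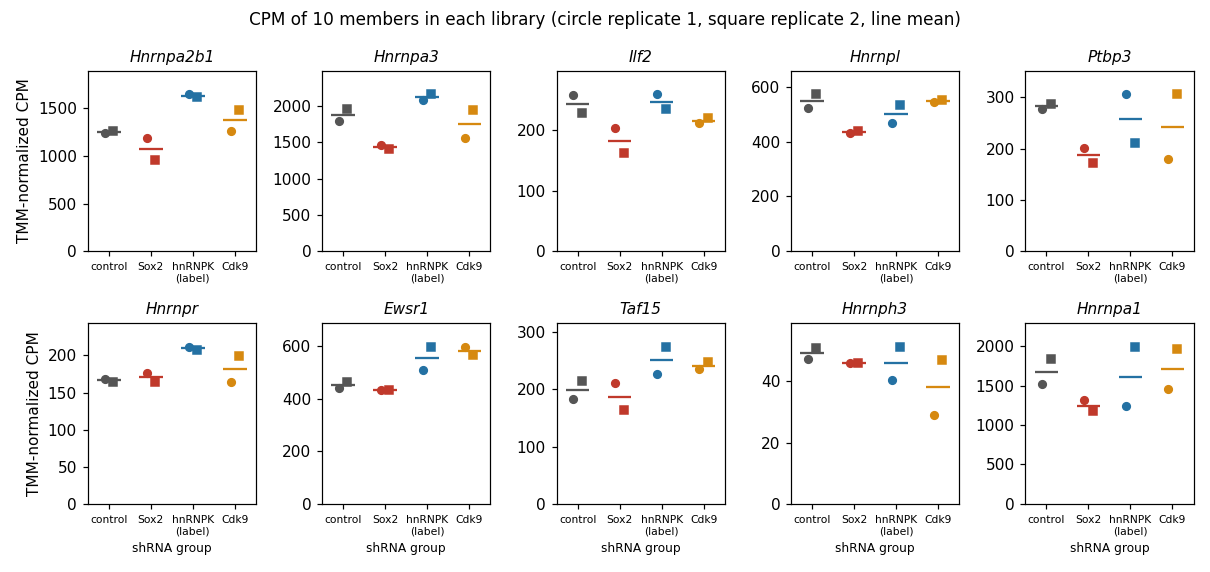
TMM-normalized CPM of 10 members in each library, on a linear axis from 0, with circles for replicate 1, squares for replicate 2 and lines for the mean of each shRNA group. Hnrnpa2b1 stood at 1645 and 1618 CPM under the hnRNPK-KD label and at 1192 and 952 in Sox2-KD, and Ptbp3 and Hnrnpa1 were spread widely between the replicates of the hnRNPK-KD label and of Cdk9-KD.

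Sox2-KD was also compared with the libraries labelled hnRNPK-KD, where 1 of 33 members was called, lower (5.9% of all tested genes were called, 1.95% lower). This was Hnrnpa2b1, at 1192 and 952 CPM in Sox2-KD against 1645 and 1618 (log2FC -0.61, SE 0.15, 95% interval -0.94 to -0.27, edgeR adjusted p = 0.0424). The libraries did not overlap, and the value lay just past the limit of 0.6. The call was lost with library totals in place of TMM (edgeR adjusted p = 0.0637), with the replicate number as a block (0.0621), with only these 4 libraries (0.0658), and without Sox2-KD replicate 2 (0.377) or either library labelled hnRNPK-KD (0.134 without replicate 1 and 0.191 without replicate 2). Against control the same gene had log2FC -0.22 in Sox2-KD and 0.38 under the hnRNPK-KD label, neither of which passed the test. DESeq2, which called 7.73% of all genes, kept the call (log2FC -0.60, adjusted p = 0.00751).

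Hnrnpa3 came closest after it, with 1467 and 1412 CPM in Sox2-KD against 2075 and 2159 (log2FC -0.56, SE 0.15, edgeR adjusted p = 0.0517), and did not pass. The unadjusted p was under 0.05 for 12 members, all lower (21.3% of all genes, 8.38% lower). The fitted log2FC was below 0 for 32 members (51% of all genes), with a median of -0.37 against -0.01 over all genes. Sox2-KD lay below the other group without overlap for 26 members (27.3% of all genes) and above it for 0 (27.6%). With library totals in place of TMM the median of all genes moved by over 0.1, from -0.01 to 0.10, and that of the members from -0.37 to -0.26, with 30 below 0. The 95% interval stayed within 0.6 of 0 for 10 members (25% of all genes).

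**Figure D5:**
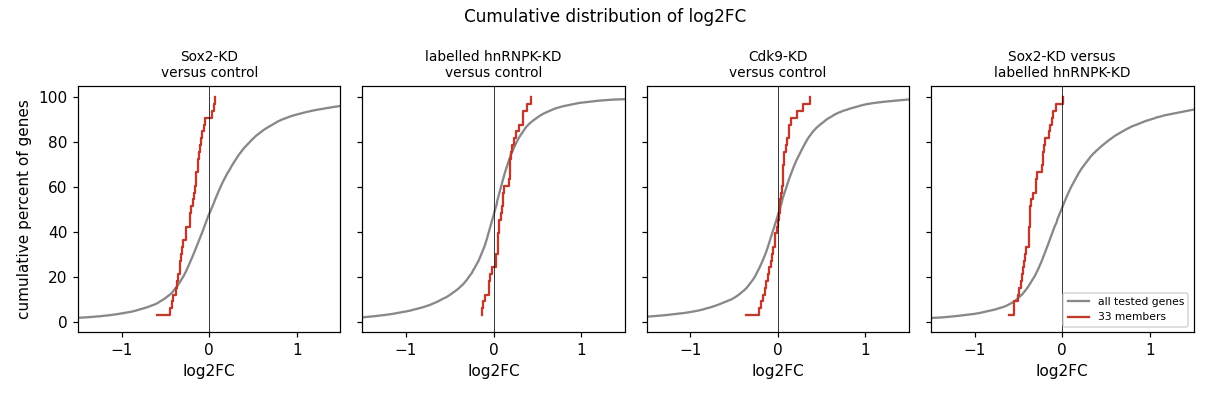
The cumulative percent of genes is drawn against log2FC in 4 comparisons, in grey for all 16504 tested genes and in red for the 33 members. The red curve lies to the left of the grey in Sox2-KD versus control over most of its course (medians -0.21 and 0.02). It is steep in every panel, since the members span a narrow range of log2FC. The curves were not matched for level. Members had at least 235 counts in any library, while the filter kept genes with far fewer (minimum count 10).

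In Sox2-KD versus Cdk9-KD, 0 of 33 members were called, against 7.33% of all tested genes, with 6 at an unadjusted p under 0.05, beside 21.7% of all genes (DESeq2 called 0 members and 8.68% of all genes). The smallest p was that of Ewsr1, with 433 and 435 CPM in Sox2-KD against 596 and 569 (log2FC -0.43, SE 0.14, edgeR adjusted p = 0.0898). Hnrnpul2, a U family gene, had 307 and 271 CPM in Sox2-KD against 349 and 480 (log2FC -0.52, SE 0.17, edgeR adjusted p = 0.0912). In the repeats run it passed in no fit with 2 libraries in each group. In Cdk9-KD versus the libraries labelled hnRNPK-KD, edgeR called 0 members and 0% of all tested genes, with 0 members at an unadjusted p under 0.05, beside 5.71% of all genes (DESeq2 called 0 members and 0.297% of all genes). These comparisons share libraries with those above.

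A test for any difference among the 4 groups called 0 of 33 members at adjusted p under 0.05, against 6.06% of all tested genes. Hnrnpa2b1, Hnrnpa3, Ewsr1 and Hnrnpul2 were the 4 members at an unadjusted p under 0.05 (20.8% of all genes), and the adjusted p of Hnrnpa2b1 was 0.126. The likelihood ratio test of DESeq2 called 1 member, Hnrnpa2b1, and 10.7% of all genes.

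Ratios between paralogs within a library do not depend on scaling between libraries. The ratio of Ptbp1 to its neuronal paralog Ptbp2, in counts per kilobase, was 34.5 and 35.1 in control, 38.8 and 32.3 in Sox2-KD, 31.6 and 38.7 under the hnRNPK-KD label and 32.8 and 39.1 in Cdk9-KD. All groups overlapped in this ratio, and Ptbp1 was far the higher of the pair in each library. Hnrnph1 to Hnrnph2 stood at 3.47 and 3.51 in Sox2-KD, and between 2.55 and 2.81 in the other 6 libraries, without overlap. Among the 11 pairs taken, more than 1 had a single library apart. The ratio of Hnrnpa2b1 to Hnrnpa1 was 0.636 in replicate 1 under the hnRNPK-KD label against 0.330 to 0.434 in the other 7. Ptbp1 to Ptbp3 ran from 2.65 to 4.93, with its lowest value in that same library and its highest in Cdk9-KD replicate 1. Hnrnpl to Hnrnpll was 11.2 in Cdk9-KD replicate 1 against 7.35 to 9.05 in the other 7.

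Of 32 other RNA-binding protein genes listed beside the members, 31 were tested. The list includes Hnrnpk, itself a knockdown target (log2FC -0.27 under its label). In any knockdown versus control, 0 of the 31 were called. At an unadjusted p under 0.05 there were 6 in Sox2-KD, 1 under the hnRNPK-KD label and 0 in Cdk9-KD, beside 19.3%, 8.03% and 10.4% of all genes. Their median log2FC was -0.12 in Sox2-KD, 0.10 under the hnRNPK-KD label and 0.08 in Cdk9-KD, beside -0.21, 0.10 and 0.02 for the members. In Sox2-KD their log2FC ran from -3.12 to 0.60, with the paraspeckle gene Pspc1 at -0.04. The only calls in this list were Raver2, a PTBP-binding protein gene, and the neuronal Hu gene Elavl4, both lower in Sox2-KD than in Cdk9-KD. Their log2FC was -0.98 and -4.08 (SE 0.25 and 0.93, edgeR adjusted p = 0.0418 and 0.0248). These 2 calls among 31 genes stand beside 7.33% of all tested genes called in that comparison.

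The region upstream of an annotated start site is shown for Hnrnpa2b1, the member called above, and for Hnrnpa3, the next in order. Another RefSeq window of Hnrnpa2b1, at chr6:51469846-51470095, overlaps the one shown and is not printed. The sequences are 250 bases from RefSeq (GRCm38.p6), 5′ to 3′ on the strand of the gene, with CCAAT boxes (CCAAT or its complement ATTGG) and GC boxes (GGGCGG or its complement CCGCCC) in capitals. Hnrnpa2b1 lies on the − strand at chr6:51460932-51469894 and its window at chr6:51469895-51470144, and Hnrnpa3 lies on the + strand at chr2:75659261-75669407 and its window at chr2:75659009-75659258.
Hnrnpa2b1: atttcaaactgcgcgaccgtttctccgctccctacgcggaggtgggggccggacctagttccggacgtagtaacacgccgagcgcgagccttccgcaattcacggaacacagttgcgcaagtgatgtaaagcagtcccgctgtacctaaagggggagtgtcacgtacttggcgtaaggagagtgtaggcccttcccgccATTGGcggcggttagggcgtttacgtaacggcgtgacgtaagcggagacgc
Hnrnpa3: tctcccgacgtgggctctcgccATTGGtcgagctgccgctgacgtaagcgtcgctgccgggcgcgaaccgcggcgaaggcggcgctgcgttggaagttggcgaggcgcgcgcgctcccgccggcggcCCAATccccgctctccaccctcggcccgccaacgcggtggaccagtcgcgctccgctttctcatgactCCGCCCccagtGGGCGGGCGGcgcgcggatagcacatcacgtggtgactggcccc
RefSeq windows were found for 29 of the 33 members, 38 windows in all, and were compared with 32841 windows of all genes on both strands. The median GC content was 64.6% over the member windows and 52.4% over all, and the median number of CpG dinucleotides 23 against 6. A CCAAT box was present in 60.5% of member windows and 33.9% of all, a GC box in 65.8% and 32.7%, and a TATA box (TATAAA) in 2.63% and 12.4%. The SOX core (ACAAAG or ACAATG) was present in 15.8% and 25.2%, the ETS motif (CCGGAAGT) in 5.26% and 2.88% and the YY1 motif (AAGATGGC) in 5.26% and 1.56%. Windows of the same gene overlap, so that these shares are descriptions without a test. The windows of all genes cover 27018 genes, whether or not they were expressed in these cells. The contrast was therefore not matched for expression and is not particular to the members.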

How the data were processed

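Per the labels and the methods of the study, the authors aligned paired-end reads to mm10 (GRCm38) with STAR, counted them per gene with featureCounts 2.0.1 and deposited raw counts, neither normalized nor pooled. The strand setting and the treatment of shared reads are not given in the sources used here. Symbols came from GENCODE vM21, which named 55154 of 55335 genes (181 had none). All 8 libraries were fitted together by the quasi-likelihood method of edgeR 4.0.16 (R 4.3.3) after filterByExpr (minimum count 10, minimum total 15) and TMM scaling, with Benjamini-Hochberg adjustment over all 16504 tested genes, called at adjusted p under 0.05 and absolute log2FC over 0.6. Replicates of a group differed beyond counting noise, and p-values measure only the spread between these libraries (biological coefficient of variation 0.186). The scripts were tested on simulated data. The members and lists were chosen with earlier results of these data known. Named genes are members called in any test, the 3 with the smallest p in each comparison with control, and the 3 highest and lowest levels. Ptbp3, Hnrnpul2, Hnrnpa1 in the libraries labelled hnRNPK-KD, and the pairs of paralogs described were singled out after their values were seen. Alternatives were DESeq2 1.42.0, its size factors, library totals, no filter, a replicate block, only the libraries compared, no limit on log2FC, the longest transcript as length, and leaving out each library. Figures were drawn with matplotlib 3.10.9. Some genes of the list of other RNA-binding proteins are not reported here by name.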

Additional observations from a re-analysis of the deposited data

How the results depend on the processing

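Of 79 repeats of the counts of members called, 70 stayed within 1.5 times and 9 did not. The count was 0 in every comparison but Sox2-KD versus the libraries labelled hnRNPK-KD, and a 0 that stayed 0 was taken as unchanged. The 70 therefore say little about how stable a call is. In Sox2-KD versus the libraries labelled hnRNPK-KD the count of 1 became 0 with library totals, with the replicate block and with only the 4 libraries compared, and ran from 0 to 1 when a library was left out. Only the 4 libraries compared gave 1 (Ptbp3) in Sox2-KD versus control, DESeq2 gave 1 (Hnrnpa2b1) in the test over the 4 groups, and the count in Sox2-KD versus Cdk9-KD ran from 0 to 1 (Hnrnpul2) when a library was left out. The replicate numbers did not pair the libraries alike in all groups (correlation of deviations from -0.23 to 0.24 over the 6 pairs of groups). The correlation was highest for control with Sox2-KD (0.24) and for control with the libraries labelled hnRNPK-KD (0.12), so some pairing there is not excluded. The block changed no other count of members. For the targeted genes, Sox2 no longer passed with library totals (log2FC -0.57), without a filter (-0.68), with the replicate block (-0.64) or with only 4 libraries (-0.66), and ran from -0.83 to -0.46 when a library was left out. Cdk9 passed with DESeq2 (-0.93) and without Cdk9-KD replicate 1, and ran from -1.19 to -0.70 when a library was left out. Hnrnpk ran from -0.70 to 0.031, the latter without replicate 1 of its label, which turned the direction. The calls over all genes moved by over 1.5 times with DESeq2, from 0 to 74 under the hnRNPK-KD label, 23 to 221 in Cdk9-KD, 0 to 49 between these groups and 1000 to 1762 over the 4 groups. With the replicate block Cdk9-KD had 15, and without a filter the hnRNPK-KD label had 1. When a library was left out, the calls ran from 144 to 343 in Sox2-KD (713 with all libraries), 0 to 32 in Cdk9-KD, 0 to 1 under the hnRNPK-KD label, 90 to 875 in Sox2-KD versus that label (974), 337 to 863 in Sox2-KD versus Cdk9-KD (1210), 0 to 6 in Cdk9-KD versus the label and 154 to 1019 over the 4 groups. These fits assume that the lone library of a group varies like the others, and the cause of these differences was not tested. The shares of counts moved by less than the spread between replicates. With the longest transcript as length, a fixed factor per gene, the median ratio moved from 34.8 to 23.0 for Ptbp1 to Ptbp2, 3.46 to 4.75 for Ptbp1 to Ptbp3, 2.701 to 3.15 for Hnrnph1 to Hnrnph2, 0.235 to 0.187 for Hnrnpr to Syncrip, 2.12 to 1.76 for Hnrnpc to Raly, 0.646 to 0.398 for Hnrnpd to Hnrnpdl, 0.391 to 0.698 for Hnrnpa2b1 to Hnrnpa1, 1.38 to 1.11 for Sfpq to Nono, 1.123 to 1.82 for Ewsr1 to Taf15 and 3.97 to 2.64 for Hnrnpu to Hnrnpul1. Counts per gene do not separate isoforms, so splicing of the members was not measured here.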
